A study of Homo sapiens with 24 samples.

Results

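Mesenchymal transcription factors and marker genes, 10 in all, were followed over 24 arrays of cultured human pancreatic cancer cells. The cells came from 2 established lines, PANC-1, called Panc1 here, and Capan-1, called Capan1. They are the 10 rows, of 34595 rows in all, that carry the symbols SNAI1, SNAI2, ZEB1, ZEB2, TWIST1, VIM, NES, CDH2, FN1 and SPARC, and each symbol had 1 row. Each line had 6 groups of 2 arrays. Cells of the DMSO and inhibitor groups received vehicle or an IRAK1/4 inhibitor at 10 uM for 24 h. Cells of the other 4 groups carried 2 retroviral vectors, pSuperRetroPuro and then pSuperRetroNeoGFP, and were selected with puromycin (1 ug/mL, 48 h) and geneticin (500 ug/mL, 4 days). The scramble group carried scrambled hairpins in both vectors, the shIRAK1 and shIRAK4 groups a hairpin in the first and a scrambled one in the second, and the shIRAK1+4 group shIRAK1 in the first and shIRAK4 in the second. All groups grew in RPMI with 10% FBS, and the labels mention no cloning of the selected cells. IRAK1 and IRAK4 are kinases that act downstream of Toll-like and interleukin-1 receptors, and the series asks what their loss does in pancreatic cancer cells.

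In the epithelial-to-mesenchymal transition, epithelial cells loosen their junctions and take on a motile, matrix-making form. SNAI1, SNAI2, ZEB1, ZEB2 and TWIST1 are transcription factors that bind E-box DNA and, for the SNAI and ZEB factors, repress epithelial genes such as CDH1 (E-cadherin). VIM and NES are intermediate filament proteins, CDH2 is N-cadherin, and FN1 (fibronectin) and SPARC are secreted matrix proteins, all of which are commonly read as mesenchymal markers in carcinoma.

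Levels are normalized log2 signals, with 2 arrays per group, and a row counted as detected where its detection p was under 0.01. Between 10015 and 12090 rows were detected per array, and the lowest detected level of an array lay between 5.53 and 5.72. Levels of different genes come from different probes and were not set against each other. Differences are given on the log2 scale ± SE from limma, with p-values adjusted over all rows tested in that comparison and a threshold of 0.05. A fold given as at least a value holds only for the background correction used here and leaves out the spread of the arrays. Its row entered the test only through the group that detected it. Nothing in the labels ties the arrays of a group to separate cultures, so the p-values describe only how far these samples spread, which may be technical, and the number of arrays limits their precision. Since whole cultures were measured, fewer cells of a type and less RNA per cell cannot be told apart.

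IRAK1 checked the labels: against scramble it fell by 2.47 ± 0.29 in Panc1 shIRAK1 (limma adjusted p = 6.27e-05), by 2.91 ± 0.29 in Panc1 shIRAK1+4 (1.25e-05) and by 1.60 ± 0.29 in Capan1 shIRAK1+4 (0.00501). In Capan1 shIRAK1 the difference was -1.19 (adjusted p = 0.0541) and in Capan1 shIRAK4 it was -0.85 (0.0888). IRAK4 was detected on none of the scramble, shIRAK4 and shIRAK1+4 arrays of either line, at 5.25 to 5.54, so comparisons with scramble do not check the shIRAK4 label. Both Panc1 shIRAK1 arrays detected it, at 5.91 and 6.01, higher than scramble by 0.47 ± 0.13 (limma adjusted p = 0.0327). All Panc1 DMSO and inhibitor arrays detected it too. The Panc1 shIRAK4 and shIRAK1+4 arrays, at 5.25 to 5.31, lay below the shIRAK1 arrays, but so did scramble (5.44 and 5.54). Of 7 markers of pancreatic ductal epithelium (such as KRT19 and EPCAM), 5 were detected on every Panc1 array and 7 on every Capan1 array. Their summed level was 11.9 to 13.2 in Panc1 and 14.6 to 15.3 in Capan1. Of 10 fibroblast and stellate cell markers, 9 were detected on no array of either line, DCN, LUM, COL1A2 and COL3A1 among them. The other, COL1A1, was detected on 10 of 12 Panc1 arrays and 2 of 12 Capan1 arrays. The summed level of those 10 was 8.65 to 9.84 in Panc1 and 8.63 to 9.04 in Capan1. Endothelial markers were detected on no Panc1 array for 7 of 7 genes and on no Capan1 array for 5 of 7. In Capan1 PECAM1 was detected on 8 of 12 arrays and VWF on 2 of 12. Immune markers were detected on no array for 4 of 8 in each line, PTPRC among them. Of the other immune markers CD68 was detected on 12 of 12 arrays of both lines and LYZ on 12 of 12 Capan1 arrays. The summed level of the 8 was 9.90 to 10.6 in Panc1 and 8.91 to 10.8 in Capan1.

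Detection split the 10 genes sharply. SNAI1, ZEB1, ZEB2, TWIST1 and FN1 were detected on none of the 24 arrays, CDH2 on every one, and the remaining 4 by line. VIM was detected on 12 of 12 Panc1 arrays and 3 of 12 Capan1 arrays. NES was detected on 12 of 12 Panc1 arrays and 10 of 12 Capan1 arrays, and SPARC on 4 of 12 and 0 of 12. SNAI2 ran the other way, on 2 of 12 Panc1 arrays and 12 of 12 Capan1 arrays. The rows of VIM, FN1 and SNAI2 combine several probes, and detection is less reliable in such rows: of their values over a log2 level of 8 in the whole table, 39.9% were listed as not detected, against 0 in rows of 1 probe. The other 7 genes have 1-probe rows. A row not detected by its probe has a level bounded only from above, and its transcript is not shown to be absent.

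**Figure D1:**
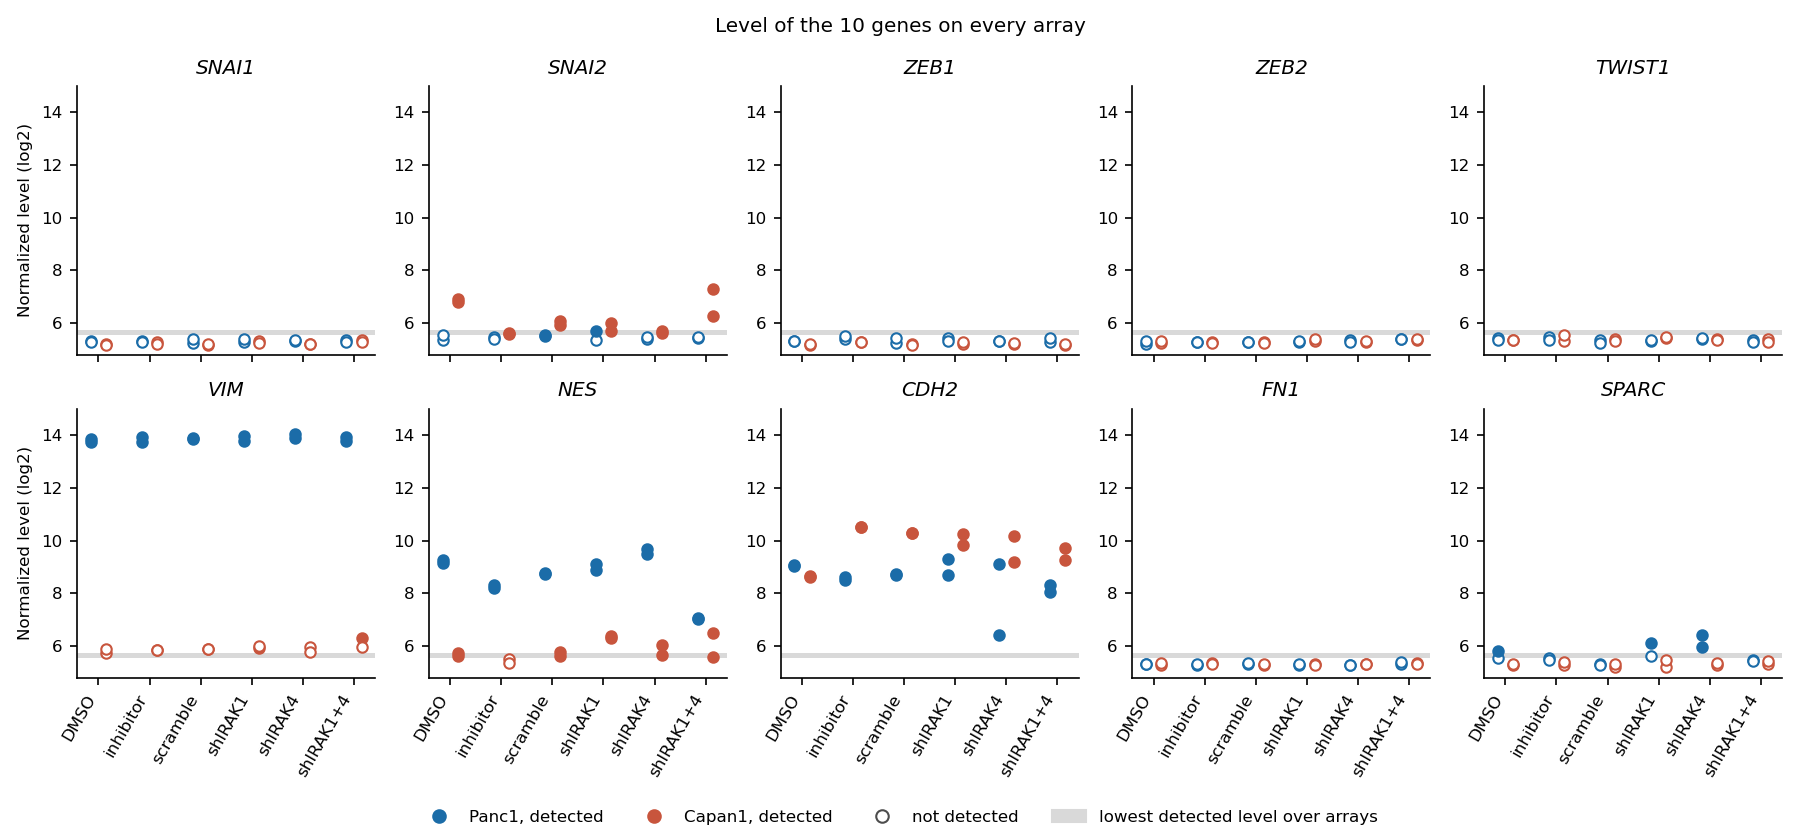
Normalized log2 level of each of the 10 genes (vertical axis) on every array by group (horizontal axis), Panc1 in blue and Capan1 in red, with filled points where the row was detected, open points where it was not, and a grey band over the lowest detected levels of the arrays (5.53 to 5.72). VIM and NES stand apart between the lines, CDH2 is detected everywhere, and SNAI1, ZEB1, ZEB2, TWIST1 and FN1 lie under or at the band on all arrays.

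Promoters of 7 of the 10 genes were found in the RefSeq table (GRCh38.p14), in 14 windows of 300 bases that run from 250 bases before a start site to 50 bases after it. SNAI1, SNAI2 and TWIST1 have no entry there. The windows of VIM, NES and CDH2 are shown because these 3 genes carry most of the differences below. VIM lies at chr10:17228241-17237593, NES at chr1:156668763-156677407 and CDH2 at chr18:27932879-28177130. Capitals mark the E-box letters CANNTG, which read the same on both strands, and every window is written 5′ to 3′ along the gene.
VIM, chr10:17227991-17228290, plus strand: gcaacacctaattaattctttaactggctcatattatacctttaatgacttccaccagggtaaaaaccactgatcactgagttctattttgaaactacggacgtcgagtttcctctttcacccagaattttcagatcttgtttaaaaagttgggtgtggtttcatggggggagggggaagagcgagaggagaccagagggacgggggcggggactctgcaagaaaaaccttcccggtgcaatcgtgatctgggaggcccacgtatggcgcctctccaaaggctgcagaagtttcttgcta
NES, chr1:156677358-156677657, minus strand: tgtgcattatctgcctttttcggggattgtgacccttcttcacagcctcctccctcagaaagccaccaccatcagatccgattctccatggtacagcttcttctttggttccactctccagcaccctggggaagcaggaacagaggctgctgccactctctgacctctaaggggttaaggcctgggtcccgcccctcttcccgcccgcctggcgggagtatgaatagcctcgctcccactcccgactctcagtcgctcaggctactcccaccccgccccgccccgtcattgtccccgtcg
CDH2, chr18:28177081-28177380, minus strand: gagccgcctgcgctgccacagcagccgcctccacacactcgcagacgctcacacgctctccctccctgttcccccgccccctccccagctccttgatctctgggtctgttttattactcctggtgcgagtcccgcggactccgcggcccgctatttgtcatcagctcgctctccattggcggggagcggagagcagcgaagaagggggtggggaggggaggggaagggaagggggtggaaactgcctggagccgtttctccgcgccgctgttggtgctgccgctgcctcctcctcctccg
CDH2, chr18:28036592-28036891, minus strand: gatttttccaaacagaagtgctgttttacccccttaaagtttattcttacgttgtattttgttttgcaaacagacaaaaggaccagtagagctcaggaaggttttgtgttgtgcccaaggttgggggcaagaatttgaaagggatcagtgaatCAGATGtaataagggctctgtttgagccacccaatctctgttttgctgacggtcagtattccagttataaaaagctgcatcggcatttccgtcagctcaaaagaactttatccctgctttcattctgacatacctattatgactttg
The VIM and NES windows and the first CDH2 window hold no E-box, and the second CDH2 start holds one, CAGATG. An E-box stood in 7 of the 14 windows of these genes and in 68.7% of all 35116 windows of the table. The narrower forms CACCTG and CAGGTG, which are the same letters read on opposite strands and lie within CANNTG, stood in 2 of the 14 windows, both of ZEB1, and in 20.6% of all. These are matches of letters within the windows only, and no binding was measured.

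Among the transcription factors, only SNAI2 was detected on both arrays of any group. ZEB1 ranged from 5.26 to 5.50 in Panc1 and from 5.17 to 5.29 in Capan1. ZEB2 ranged from 5.19 to 5.41 in Panc1 and from 5.22 to 5.38 in Capan1. SNAI1 ranged from 5.23 to 5.39 and from 5.16 to 5.35, and TWIST1 from 5.25 to 5.46 and from 5.29 to 5.54. All of these lie under the lowest detected level of 5.53 to 5.72 or at its lower edge, and none of these 4 genes entered a test. The lowest detection p among them was 0.0182, for TWIST1 on a Capan1 array.

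SNAI2 (SLUG) was detected on all Capan1 arrays, at 5.57 to 7.29, and its 6 Capan1 groups spanned 1.26. The DMSO arrays gave 6.90 and 6.78 and the inhibitor arrays 5.57 and 5.61. Scramble gave 6.07 and 5.92, shIRAK1 6.01 and 5.70, shIRAK4 5.69 and 5.61, and shIRAK1+4 7.29 and 6.28. DMSO and shIRAK1+4 were thus the highest groups and overlapped each other, and the inhibitor and shIRAK4 groups were the lowest. In Panc1 SNAI2 lay between 5.35 and 5.69 and was detected only on scramble replicate 2 and shIRAK1 replicate 2.

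VIM separated the lines and varied little within Panc1. In Panc1 the DMSO arrays gave 13.87 and 13.75, inhibitor 13.75 and 13.94, scramble 13.86 and 13.91, shIRAK1 13.79 and 13.97, shIRAK4 14.06 and 13.88, and shIRAK1+4 13.77 and 13.92. In Capan1 VIM ranged from 5.73 to 6.31, with its highest value on shIRAK1+4 replicate 1. Its Capan1 group means spanned 0.32, and it entered no test within that line. The Panc1 group means spanned 0.16, neighbouring groups overlapped throughout, and no comparison within Panc1 changed VIM (largest difference -0.12 ± 0.12, shIRAK1+4 against shIRAK4, 95% interval -0.38 to 0.13, limma adjusted p = 0.755).

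NES (nestin), a filament protein known from neural progenitors, had the widest span of group means among these genes within Panc1, 2.57 against 1.30 for CDH2, while single arrays spread further for CDH2. The DMSO arrays gave 9.15 and 9.28, the inhibitor arrays 8.32 and 8.21, and the scramble arrays 8.73 and 8.76. shIRAK1 gave 8.89 and 9.11, shIRAK4 9.51 and 9.69, and shIRAK1+4 7.02 and 7.04. The group means therefore ran from shIRAK4 down through DMSO, shIRAK1, scramble and inhibitor to shIRAK1+4, and the shIRAK1+4 arrays lay below every other Panc1 array. In Capan1 NES stayed near the detection limit, from 5.34 to 6.50, and neither inhibitor array detected it.

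CDH2 was detected in every group of both lines. In Panc1 the DMSO arrays gave 9.07 and 9.05, inhibitor 8.61 and 8.49, scramble 8.72 and 8.69, shIRAK1 9.29 and 8.71, shIRAK4 9.10 and 6.42, and shIRAK1+4 8.31 and 8.03. In Capan1 DMSO gave 8.66 and 8.60, inhibitor 10.53 and 10.50, scramble 10.28 and 10.30, shIRAK1 9.84 and 10.26, shIRAK4 10.17 and 9.20, and shIRAK1+4 9.28 and 9.70. Capan1 DMSO lay below the other 5 Capan1 groups with no overlap. The Panc1 shIRAK4 arrays differed by 2.68 for CDH2, a gap reached by only 10 of 13361 rows (0.0748%) between them, while their levels over all rows correlated at r = 0.984. That gap enters the pooled spread of every CDH2 test, so each call on CDH2 is also given without Panc1 shIRAK4 replicate 2.

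Of the matrix genes, FN1 ranged from 5.26 to 5.38 in Panc1 and from 5.27 to 5.35 in Capan1 and entered no test. SPARC, a collagen-binding matrix protein, was detected on DMSO replicate 2, shIRAK1 replicate 1 and both shIRAK4 arrays of Panc1. Its Panc1 values were 5.53 and 5.80 in DMSO, 5.55 and 5.47 with the inhibitor, 5.30 and 5.27 in scramble, 6.12 and 5.62 in shIRAK1, 6.42 and 5.95 in shIRAK4, and 5.45 and 5.42 in shIRAK1+4. The shIRAK1 and shIRAK4 arrays overlapped each other and both groups lay above scramble. In Capan1 SPARC ranged from 5.20 to 5.47.

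The lines were compared first, between their DMSO groups and between their scramble groups. In DMSO, VIM was higher in Panc1 by 7.996 ± 0.12 (limma adjusted p = 5.29e-17) and NES by 3.54 ± 0.20 (5.50e-10), while SNAI2 was lower in Panc1 by a log2 difference of -1.38 ± 0.22 (4.83e-05). CDH2 differed by 0.43 ± 0.54 (95% interval -0.71 to 1.57, adjusted p = 0.515). Thus 3 of the 4 genes tested passed, where 56.9% of all rows did. Between the scramble groups 3 of 4 passed and 61.5% of all rows did: VIM by 8.01 (adjusted p = 5.02e-17), NES by 3.06 (2.88e-09), and CDH2, which was lower in Panc1, by -1.58 ± 0.54 (0.0175, and 6.81e-05 without Panc1 shIRAK4 replicate 2). The CDH2 call was lost with no detection filter and when any one of its own 4 arrays was left out (limma adjusted p up to 0.0687). SNAI2 differed there by -0.47 ± 0.22 (adjusted p = 0.0707), and its scramble arrays did not overlap between the lines. It passed under 6 of 13 alternatives, with differences of -0.47 to -0.94. For VIM, SNAI2 and NES one line was at or near the detection limit, so these differences are those of the measured means. With the background inferred from all rows, the NES differences were 1.09 in DMSO and 0.72 in scramble, and the SNAI2 difference in DMSO was -0.15, each still past the threshold.

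Genes that accompany these markers were read from lists. Of 30 other genes of the mesenchymal program 20 were tested between the DMSO groups, where 56.9% of all rows passed (3417 higher and 3048 lower). Of these 20 genes 12 were higher and 3 lower in Panc1 (median 0.86, against 0.02 over all rows tested). They included TPM2, a tropomyosin of actin filaments (6.93 ± 0.12, limma adjusted p = 1.56e-16), and the fibronectin receptor subunit ITGA5 (4.19 ± 0.23, 3.39e-10). Of 18 epithelial genes that ZEB and SNAI factors are known to repress, 14 were tested and 13 were lower in Panc1, with a median of -2.23. EPCAM, an epithelial adhesion protein, differed by -5.86 ± 0.16 (adjusted p = 3.29e-14) and CDH1 by -5.29 ± 0.48 (1.25e-07), while the vesicle GTPase RAB25 was at least 42.8-fold lower in Panc1. EPCAM has 2 rows, the other under an older name, and only the row named EPCAM was read. Among 15 intermediate filament genes SYNM, the filament partner synemin, was higher in Panc1 by 2.64 ± 0.09 (adjusted p = 4.22e-13). The rows of TPM2 and SYNM combine several probes and were detected on 1 and 0 of 12 Capan1 arrays. Both differences are therefore those of the measured means, and their sizes depend on the background. In the scramble groups 10 mesenchymal program genes were higher and 3 lower of 20, and 14 of 14 epithelial genes were lower. Of all rows 61.5% passed there, 3504 higher and 3339 lower, so the number of mesenchymal genes called is near that share. With arrays scaled by their medians instead, the mesenchymal counts there were 8 higher and 8 lower, and the median of the list turned to -0.21, where all rows tested had moved to -0.65.

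**Figure D2:**
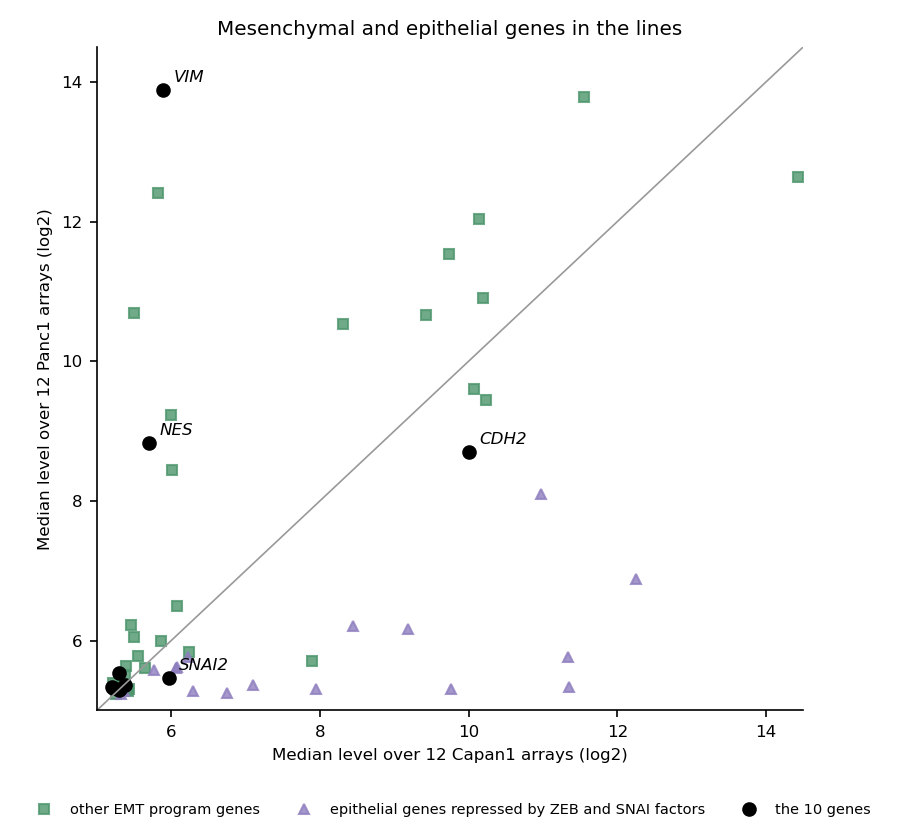
Median log2 level over the 12 Capan1 arrays (horizontal axis) against the median over the 12 Panc1 arrays (vertical axis) for the 10 genes (black), the other mesenchymal program genes (green squares) and the epithelial genes (purple triangles), with the line of equality in grey. VIM and NES lie far above the line, CDH2 and SNAI2 lie below it, and the epithelial genes lie below it or near the detection limit of both lines.

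Inhibitor and DMSO arrays of each line were set against each other. In Panc1, 3 of the 10 genes were tested and NES alone passed, with 6.75% of all rows passing: it fell by 0.95 ± 0.20 (limma adjusted p = 0.0105), in all 4 array-to-array differences. That call was lost when any one of its 4 arrays was left out and under 4 other settings, with adjusted p up to 0.189. CDH2 differed by -0.51 ± 0.54 (95% interval -1.64 to 0.63, adjusted p = 0.656) and VIM by 0.03 ± 0.12 (0.918). In the mesenchymal list 1 of 19 tested genes fell, TPM2, by 0.52 ± 0.12 (adjusted p = 0.0176). With arrays scaled by their medians 0 passed, where only 34 of all rows were higher and 3 lower. In the TGF-beta list TGFB3, a ligand, and ID3, a target gene, fell by 0.82 ± 0.11 and 0.76 ± 0.11, and the signal mediator SMAD4 rose by 0.57 ± 0.16. JUP (plakoglobin), which links cadherins to the cytoskeleton, fell by 1.10 ± 0.19. These were 3 of 11 tested TGF-beta genes and 1 of 4 tested cadherins and catenins. With median scaling the TGF-beta list had 0 higher and 1 lower, and the cadherins and catenins 0 of 4. The SMAD4 and JUP calls were thus lost, with at least 1 of TGFB3 and ID3. SMAD4 was not called with the authors' normalized values either.

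In Capan1 CDH2 and SNAI2 differed in opposite directions between the inhibitor and DMSO arrays. CDH2 rose by 1.88 ± 0.54 (3.69-fold, limma adjusted p = 0.0139) and SNAI2 fell by 1.26 ± 0.22 (2.39-fold, 0.000446), each in all 4 array-to-array differences. These were 2 of 3 genes tested, beside 32.4% of all rows. Scramble arrays, without inhibitor, differed from the same DMSO arrays in the same directions (CDH2 1.66, SNAI2 -0.84). Whether the inhibitor or the DMSO arrays account for the differences was not tested. The SNAI2 inhibitor arrays lay at or under the lowest detected levels of those arrays, 5.67 and 5.61, so the 2.39-fold value depends on the background. Without Panc1 shIRAK4 replicate 2 the CDH2 difference had an SE of 0.25 and an adjusted p of 6.59e-05. The CDH2 call was lost when any one of its own 4 arrays was left out (adjusted p up to 0.0740), and SNAI2 passed under all 14 alternatives, with differences from -1.74 (robust background) to -0.13 (background inferred from all rows). NES differed by -0.25 ± 0.20 (adjusted p = 0.376). In the mesenchymal list 6 of 16 tested genes fell and none rose: the log2 differences were -2.02 ± 0.24 for TPM1, a tropomyosin, -2.02 ± 0.48 for the receptor kinase AXL and -1.53 ± 0.24 for the lectin LGALS1. The list median was -0.39, against 0.00 over all rows. Epithelial genes went both ways, 3 up and 2 down of 14, and 3 up and 0 down with arrays scaled by their medians. RBM35A, the row of the splicing regulator ESRP1, rose by 0.82 ± 0.12. CDH17, the intestinal cadherin, was at least 20.9-fold lower with the inhibitor (adjusted p = 0.0118, SE 1.23). ID1, a target gene of BMP signals, rose by 1.93 ± 0.32, and the receptor TGFBR2 fell by 1.30 ± 0.17. With median scaling 1 of 8 tested TGF-beta genes was higher and 0 lower, so the TGFBR2 call was lost.

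The inhibitor effects were then compared between the lines. The CDH2 effect was lower in Panc1 than in Capan1 by -2.39 ± 0.76 (limma adjusted p = 0.0426, and 0.000516 without Panc1 shIRAK4 replicate 2). The SNAI2 effect was higher by 1.23 ± 0.31 (0.0131), with SNAI2 undetected on all 4 Panc1 arrays of that contrast. The SNAI2 call was lost under 4 of 17 alternatives, without DMSO replicate 1 of either line, with median scaling (limma adjusted p = 0.0976) and with the background inferred from all rows (difference 0.13). The NES effect differed by -0.71 ± 0.29 (adjusted p = 0.110), and NES was near the detection limit in Capan1. It passed with the background inferred from all rows (-0.59, 0.00111) and with array weights (-0.71, 0.00302), 2 of 17 alternatives. These were 2 of 4 genes tested, against 16% of all rows. The CDH2 difference lost its call under 10 of 17 alternatives, among them each of the 8 arrays left out in turn.

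**Figure D3:**
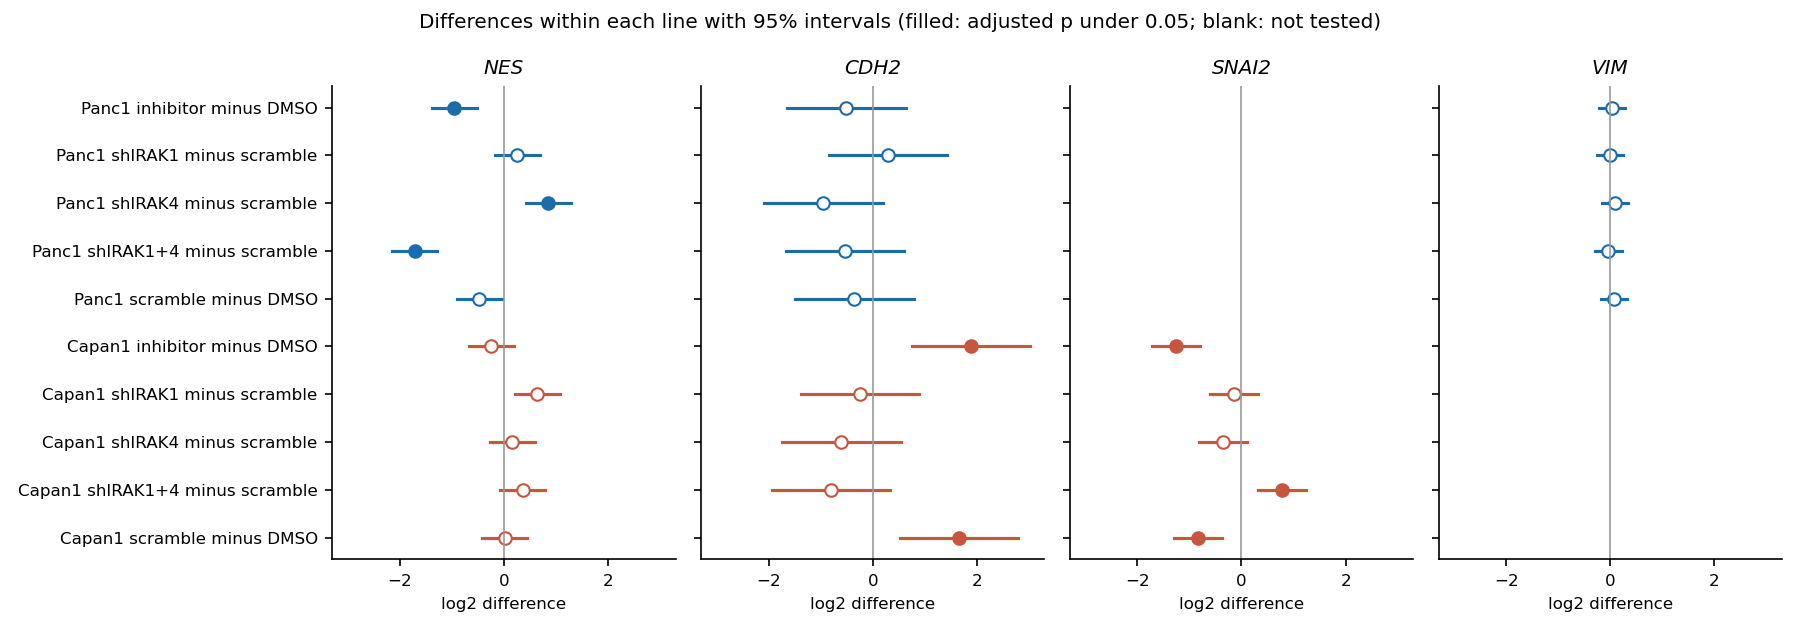
Log2 differences (horizontal axis) of NES, CDH2, SNAI2 and VIM in the 10 comparisons within a line (vertical axis), Panc1 in blue and Capan1 in red, with 95% intervals, filled points where the adjusted p was under 0.05, and no point where the gene was not tested. NES passes in 3 Panc1 comparisons, SNAI2 in 3 Capan1 comparisons and CDH2 in 2 Capan1 comparisons, while VIM lies near 0 throughout Panc1.

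Single knockdowns in Panc1 were set against scramble. With shIRAK1, 0 of 3 genes tested passed in the limma fit, where 10.6% of all rows did: NES differed by 0.25 ± 0.20 (adjusted p = 0.476), CDH2 by 0.29 ± 0.54 (0.782) and VIM by 0.00 ± 0.12 (0.996), and none had an unadjusted p under 0.05. With shIRAK4, 2 of 4 passed and 13.3% of all rows did. NES rose by 0.85 ± 0.20 (adjusted p = 0.0116), a call lost under 6 of 13 alternatives, the one without shIRAK4 replicate 2 among them (0.76, adjusted p = 0.0679). SPARC rose by 0.90 ± 0.16 (0.00182), at least 1.40-fold, since scramble was undetected. That bound holds only for the background used here, inferred from rows of 1 probe: the difference was 0.09 with the background inferred from all rows and 1.91 without background correction. SPARC entered this test only through the shIRAK4 group, where it was high, and its call was lost with arrays scaled by their medians (adjusted p = 0.0580). Scramble had the lowest SPARC mean of the Panc1 groups, 5.28 against 5.67 in DMSO. For NES the scramble mean, 8.75, also lay below DMSO, 9.22. CDH2 differed by -0.95 ± 0.54 (adjusted p = 0.263). With replicate 2 left out its difference was 0.39 (adjusted p = 0.456), and with replicate 1 left out -2.29 (0.000302).

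NES was lower in the Panc1 double knockdown than in scramble. In Panc1 shIRAK1+4 against scramble NES fell by 1.71 ± 0.20 (3.28-fold, limma adjusted p = 4.90e-05), in all 4 array-to-array differences and past the threshold under all 14 alternatives. With the background inferred from all rows the difference was -0.57. NES was 1 of 3 genes tested to pass, with 14.8% of all rows passing. CDH2 differed by -0.53 ± 0.54 (95% interval -1.67 to 0.61, adjusted p = 0.550) and VIM by -0.04 ± 0.12 (0.877). In Capan1 the same comparison gave NES 0.36 ± 0.20 (adjusted p = 0.335), and the NES effect was lower in Panc1 than in Capan1 by -2.07 ± 0.29 (0.000433, past the threshold under all 17 alternatives, with -0.60 where the background came from all rows), 1 of 4 genes tested against 10.4% of all rows.

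Comparisons of the double with each single knockdown, added after the values were seen, placed NES below both. It was lower than in shIRAK1 by -1.97 ± 0.20 (limma adjusted p = 4.46e-05), the 1 gene of 3 tested to pass against 6.93% of all rows. Against shIRAK4 it was lower by -2.57 ± 0.20 (1.56e-06), and SPARC by -0.75 ± 0.16 (0.0272), at least 1.50-fold, where 1.72% of all rows passed. SPARC entered this test only through the shIRAK4 group, where it was high, and its call was lost under 8 of 13 alternatives. With the background inferred from all rows the NES differences were -0.75 and -1.36, still past the threshold, and the SPARC difference was -0.07. These comparisons share the shIRAK1+4 arrays, and the knockdown comparisons above share the scramble arrays, so they are not independent of each other.

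Other genes moved beside NES in the Panc1 knockdowns. SPOCK1, a secreted proteoglycan, rose against scramble by 2.21 ± 0.40 in shIRAK1, 1.82 ± 0.40 in shIRAK4 and 2.66 ± 0.40 in shIRAK1+4 (limma adjusted p from 0.000391 to 0.00709). TGFBI, a TGF-beta-induced matrix protein, rose by 1.14 ± 0.26 in shIRAK1 and 1.00 ± 0.26 in shIRAK4. CALD1 (caldesmon) rose by 1.10 ± 0.12 in shIRAK1+4. In the mesenchymal list 3 genes rose and 1 fell of 18 with shIRAK1, 6 and 1 of 20 with shIRAK4, and 4 and 1 of 19 with shIRAK1+4 (medians 0.20, 0.29 and 0.14). Of all rows 10.6%, 13.3% and 14.8% passed in these comparisons. Epithelial genes rose in 1 of 5, 2 of 5 and 4 of 6 tested, and none fell. EPCAM rose by 2.32 ± 0.16 in shIRAK1+4 (adjusted p = 1.65e-07) and by 1.23 ± 0.16 in shIRAK4 (0.000111). CDH1 rose at least 3.01-fold in shIRAK1+4 (0.0164), and CDS1, a lipid synthesis enzyme of epithelial cells, at least 1.49-fold (0.000545). Both rows entered that test only through the shIRAK1+4 group, and both bounds hold only for the background used here. SYNM fell in all 3 knockdowns, by 1.04, 0.87 and 0.88 (each ± 0.09), and KRT8, an epithelial keratin, rose by 0.50 to 0.69 (each ± 0.14). With arrays scaled by their medians the epithelial counts were 0 of 5, 1 of 5 and 1 of 6, all higher, with list medians of 0.46, 0.77 and 0.71. The mesenchymal counts were then 1 higher and 1 lower, 0 and 1, and 2 and 1. Those of the intermediate filament genes were 0 higher and 1 lower, 0 and 0, and 0 and 0. KRT8 was thus called in none of the 3 knockdowns, and SYNM in neither shIRAK4 nor shIRAK1+4. Of all rows 118 were then higher and 45 lower, 160 and 36, and 114 and 53. Without that scaling the counts over all rows were 563 and 509, 723 and 633, and 852 and 686.

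The Capan1 knockdowns were set against scramble in the same way. Here 0 of 3 genes tested passed with shIRAK1 (1.65% of all rows) and 0 of 3 with shIRAK4 (8.47% of all rows) in the limma fit. NES in shIRAK1 differed by 0.64 ± 0.20 (adjusted p = 0.151) and was the 1 gene of these with an unadjusted p under 0.05. With shIRAK1+4 SNAI2 rose by 0.78 ± 0.22 (adjusted p = 0.0455), 1 of 3 genes tested against 5.67% of all rows. Its arrays there were 7.29 and 6.28, the widest gap of SNAI2 in any group, and the call was lost under 12 of 14 alternatives (adjusted p up to 0.255). SNAI2 was also higher in shIRAK1+4 than in shIRAK1 by 0.93 ± 0.22 (0.0269, with 3.6% of all rows) and than in shIRAK4 by 1.13 ± 0.22 (0.00735, with 4.55% of all rows), in each case 1 of 3 genes tested, lost under 10 and 3 of 14 alternatives. CDH2 differed from scramble by -0.24, -0.60 and -0.80 (each ± 0.54, adjusted p from 0.425 to 0.926). In the mesenchymal list 0 of 15, 2 of 16 and 0 of 15 genes rose and none fell. ACTA2, smooth muscle actin, rose by 1.60 ± 0.23 and TPM1 by 0.88 ± 0.24 in shIRAK4, and neither passed with arrays scaled by their medians. The ligand BMP4 rose by 1.09 ± 0.14 in shIRAK4 and by 0.66 ± 0.14 in shIRAK1+4, and RBM35A fell by 0.73 and 0.70 (each ± 0.12). With median scaling 0 of 9 tested TGF-beta genes were higher in each of these 2 comparisons, so both BMP4 calls were lost.

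The control groups themselves differed. Scramble and DMSO cells differ in virus, selection and vehicle at once, and these cannot be told apart. In Panc1 0 of 3 genes tested passed in the limma fit, beside 25.9% of all rows. NES had an unadjusted p under 0.05, with a difference of -0.47 ± 0.20 (adjusted p = 0.101). In Capan1 2 of 3 passed, beside 15.6% of all rows: CDH2 rose by 1.66 ± 0.54 (adjusted p = 0.0461, and 0.000419 without Panc1 shIRAK4 replicate 2) and SNAI2 fell by 0.84 ± 0.22 (0.0146). The inhibitor comparison in Capan1 rests on the same DMSO arrays. The CDH2 call was lost with any one of its 4 arrays left out and with no detection filter, and the SNAI2 call under 9 of 14 alternatives. CDH17 was at least 21.7-fold lower in Capan1 scramble than in DMSO, and BMP4 fell by 1.70 ± 0.14. The BMP4 rises in Capan1 shIRAK4 and shIRAK1+4 were thus measured against a scramble group that lay below DMSO. In Panc1 2 mesenchymal program genes rose and 10 fell of 20, with a median of -0.71 (1 rose and 3 fell with arrays scaled by their medians). Of all rows 128 rose and 189 fell with that scaling, against 1250 and 1428 without it. SPOCK1 fell by 2.83 ± 0.40, TGFBI by 1.51 ± 0.26, and THBS1 (thrombospondin), undetected in scramble, was at least 2.46-fold lower. SPOCK1 and TGFBI, which rose with the hairpins against scramble, were thus low in scramble itself: the SPOCK1 mean was 5.83 in scramble, 8.66 in DMSO and 8.49 in shIRAK1+4.

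**Figure D4:**
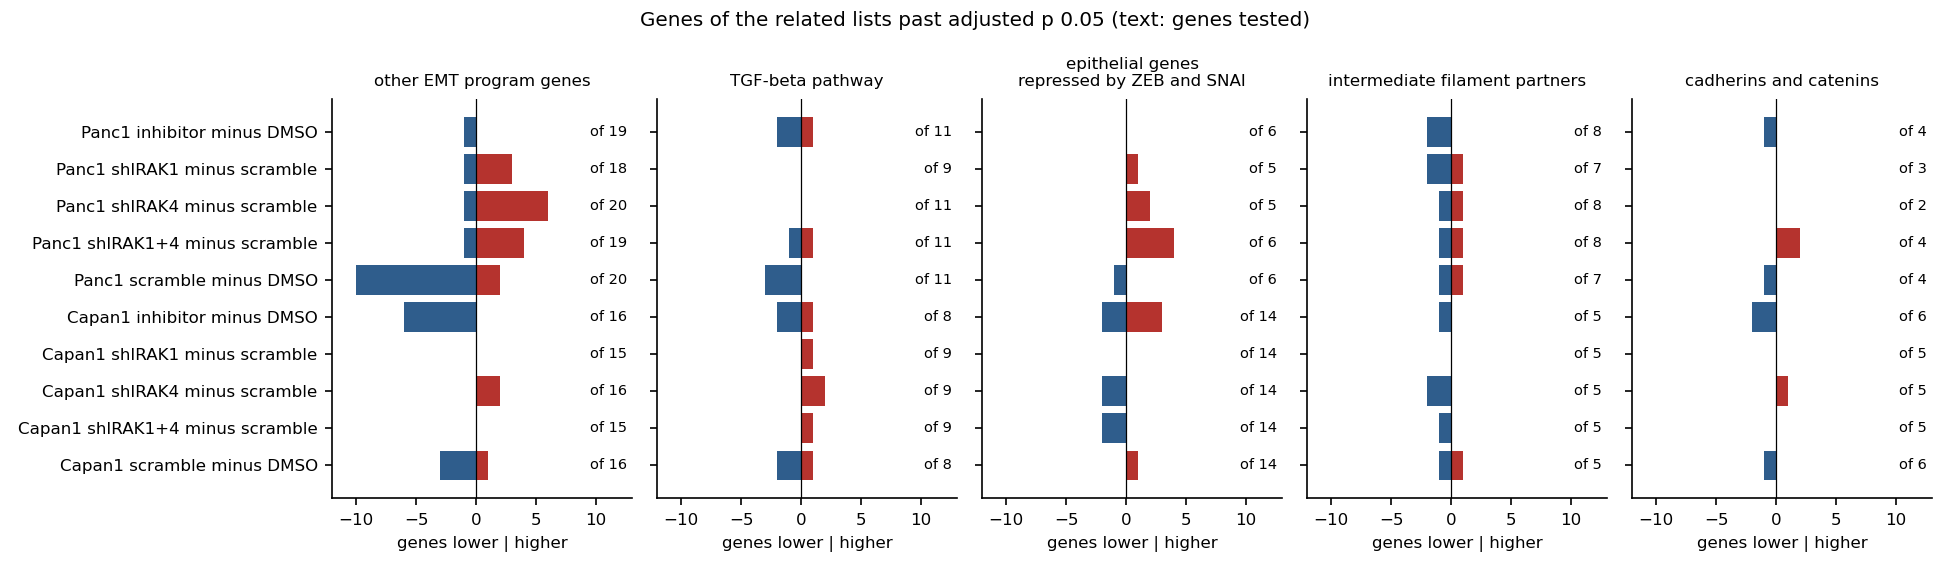
Number of genes past an adjusted p of 0.05 in 5 related lists (bars to the right higher, to the left lower; horizontal axis, genes) for the 10 comparisons within a line (vertical axis), with the number tested as text. The mesenchymal list has its longest bar, 10 lower, in Panc1 scramble against DMSO, where 25.9% of all rows passed. The epithelial list has 4 higher in Panc1 shIRAK1+4, where 14.8% of all rows passed.

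The rows whose levels followed each gene most closely were taken as the 2 with the highest Pearson r over the 12 arrays of a line, for genes detected on all of them and spanning at least 1 log2 between groups. The arrays share groups and normalization, and the values are a description. NES in Panc1 was closest to LOC100130886 (r = 0.887) and to ATP1B1, a subunit of the sodium pump (0.861), among 8053 rows. CDH2 in Panc1 was closest to FBXO6 (0.900), a ubiquitin ligase subunit, and CIB1 (0.891), a calcium-binding protein. In Capan1, among 8358 rows, CDH2 was closest to RAI1 (0.971) and LOC391656 (0.961), and SNAI2 to EXOSC4, a subunit of the RNA exosome (0.963), and ZNF598 (0.947).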

How the data were processed

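Illumina bead arrays of 1 colour, 24 in all, measured the RNA of 12 groups. The authors deposited log2 signals per gene, with GenomeStudio 2011 named in the submitters' processing notes; how probes were combined is not given in the sources used here. Beside each signal they deposited a detection p-value against negative controls, whose steps fit 770 controls. A second deposited table of normalized log2 values served as an alternative.

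Here the signals were put back on a linear scale, and limma 3.58.1 (R 4.3.3) applied normexp background (mean and SD inferred from the detection p of the 27191 rows that act as 1 probe), an offset of 16, quantile normalization and log2. A model of 12 group means was fitted to the 13361 rows detected (p under 0.01) on both arrays of at least 1 group. A row entered a comparison where both arrays of a compared group detected it. P-values were adjusted by Benjamini and Hochberg's method over all rows of a comparison, with a threshold of 0.05. For 1-probe rows undetected in 1 group, folds are bounds from the lowest detected level. These bounds hold for this background only and leave out the spread of the arrays. The steps were tested on simulated data. The genes and lists were chosen with earlier results of these data known. All 10 genes are named, with up to 3 genes per list and comparison, those of largest difference past the threshold. A gene that this rule names is not reported here, though the counts include it.

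The inferred background SD ran from 9.45 to 45.6, against 6.17 to 8.57 by a robust estimate tried as an alternative. The design text assigns hairpins to PANC-1 only, but both lines have hairpin arrays, and both were used. Depth has no meaning for arrays; the number of arrays limits precision.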

Additional observations from a re-analysis of the deposited data

Results flagged for a closer look

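A test of the difference between the lines singled out 3 results. The CDH2 effect of the inhibitor was lower in Panc1 than in Capan1 by -2.39 ± 0.76 (limma adjusted p = 0.0426): the inhibitor arrays lay below DMSO in Panc1, without passing the threshold there, and above it in Capan1. The SNAI2 effect of the inhibitor differed by 1.23 ± 0.31 (0.0131), with SNAI2 at or under the detection limit in Panc1. Capan1 scramble arrays, without inhibitor, also lay above the same DMSO arrays for CDH2 (1.66) and below them for SNAI2 (-0.84). The NES effect of shIRAK1+4 differed by -2.07 ± 0.29 (0.000433): NES fell in Panc1, and in Capan1 it stayed near the detection limit.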

How the results depend on the processing

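Of 848 results of these genes under the alternatives, 744 kept their direction and their side of the threshold, 85 lost it, 19 gained it and 0 turned round with a call on either side, while 35 changed sign with no call. Of 23 calls, 10 held under every alternative: VIM and NES between the lines (4 comparisons), SNAI2 between the DMSO groups, SNAI2 with the inhibitor in Capan1, and NES in Panc1 shIRAK1+4 against scramble and each single knockdown and between the lines. In the counts that follow, each is the number of the 10 genes called, and the cause of a change was not tested. With the background inferred from all rows, Panc1 scramble against DMSO had 1, Capan1 shIRAK1+4 against scramble 0 and against shIRAK1 0, and Capan1 scramble against DMSO 1, and the SNAI2 differences that had been called ran from -0.15 to 0.13. Without background correction, and likewise in the authors' normalized table, Panc1 inhibitor had 0, Panc1 shIRAK4 1, Capan1 shIRAK1+4 against scramble 0 and against shIRAK1 0, Capan1 scramble against DMSO 1 and Panc1 shIRAK1+4 against shIRAK4 1. Median scaling gave the same counts for these 6, and 0 for the inhibitor effect between lines and for Capan1 shIRAK1+4 against shIRAK4. With each line alone, Capan1 shIRAK1+4 had 0 against scramble, shIRAK1 and shIRAK4, while Capan1 scramble against DMSO, Panc1 scramble against DMSO and Panc1 shIRAK1+4 against shIRAK4 had 1. Without the detection filter, Capan1 shIRAK1+4 had 0 against scramble and shIRAK1, and Capan1 scramble against DMSO, the inhibitor effect between lines and Panc1 shIRAK1+4 against shIRAK4 had 1, and the scramble groups 2. Array weights gave 1 in Panc1 scramble against DMSO and in Capan1 shIRAK1, 0 in Capan1 shIRAK1+4 against scramble, shIRAK1 and shIRAK4, 2 for the shIRAK1+4 effect between lines and 3 for the inhibitor effect, where NES then passed. A robust background, added after seeing the data, gave 0 in Panc1 inhibitor, 1 in Panc1 shIRAK4, and 0 in Capan1 shIRAK1+4 against scramble and shIRAK1.

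With 1 array at a time left out, the remaining array of its group took its spread from the other groups. The counts then ran from 0 to 1 in Panc1 inhibitor, Panc1 shIRAK1 and Capan1 shIRAK1+4 against shIRAK1, from 1 to 2 in Capan1 inhibitor, the shIRAK1+4 effect between lines and Panc1 shIRAK1+4 against shIRAK1 and against shIRAK4, from 0 to 2 in Capan1 scramble against DMSO, Capan1 shIRAK1+4 against scramble and the inhibitor effect between lines, and from 1 to 3 in Panc1 shIRAK4 and in Capan1 shIRAK1+4 against shIRAK4, from 2 to 3 between the scramble groups and from 3 to 4 between the DMSO groups. Without Capan1 shIRAK1+4 replicate 2, NES passed against scramble (0.82, adjusted p = 0.00615). The replicate numbers were not taken to pair the samples, since not every correlation of the deviations of same-numbered arrays was over 0.1: 7 of 15 were in Capan1 (-0.142 to 0.312) and 3 of 15 in Panc1 (-0.0395 to 0.482). With the replicate block, the number of the 10 genes called was 4 between the scramble groups, where SNAI2 then passed (-0.65, limma adjusted p = 0.0144), and unchanged in the other 17 comparisons. SNAI2 passed there, giving 4, also without background correction, in the authors' table (0.0257), with median scaling (0.00255), array weights (0.00464) and the robust background (0.0118).

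Scaling by medians moved the median of all rows tested by over 0.1 in 12 of the 18 comparisons, for example from 0.00 to 0.35 in Capan1 inhibitor (1678 rows higher and 299 lower, against 1797 and 1722), from 0.01 to 0.58 in Capan1 scramble against DMSO (3594 and 155, against 868 and 833) and from 0.02 to 0.12 in Panc1 shIRAK1+4. Signal over background limits SNAI2 in Panc1 and in Capan1 with the inhibitor, VIM and NES in Capan1, and SPARC.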
